A study of Homo sapiens with 24 samples.

Results

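In MIA PaCa-2 cells carrying a doxycycline-inducible MED30, 1926 Myc peaks were listed with doxycycline but not without it and lay at the end of a single protein-coding gene. They were chosen from the peak list of the doxycycline library on chromosomes 1 to 22 and X, as peaks that shared no base with a peak of the library without doxycycline and reached within 1 kb of an end of exactly 1 coding gene span. They made up 57.2% of the 3369 doxycycline peaks at a single coding gene end and lay among 6718 doxycycline peaks on these chromosomes, 57.6% of which had no overlapping peak without doxycycline. The 1926 peaks named 1916 genes, 9.59% of the 19974 coding genes examined. The choice itself used both peak lists, so the number of peaks and their absence from the other list describe the rule and test nothing.

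MIA PaCa-2 is an established human pancreatic carcinoma cell line. Both libraries came from cells with a tet-on MED30 transgene, 1 grown without doxycycline and 1 with it, lightly fixed with formaldehyde and profiled with an antibody to Myc by CUT&Tag. The doxycycline library is titled as day 5, whereas the protocol in the labels speaks of 2 days. With 1 library per condition there is no replicate, so the differences between the lists compare these libraries and carry no test across conditions. The series design asks how more or less MED30 affects where other factors bind, and both libraries here belong to the overexpression arm. Of the 24 samples of the series 22 were not analysed here, among them the control IgG libraries, so some of the peaks described can be background of the assay.

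Myc is a transcription factor of the basic helix-loop-helix leucine zipper class that binds DNA as a dimer with Max, with the E-box CACGTG as its preferred site, and in growing tumour cells it is found at a large share of active promoters. MED30 belongs to Mediator, a large assembly that links transcription factors to RNA polymerase II at promoters. In CUT&Tag, an antibody tethers an adapter-loaded transposase next to the bound protein, and the DNA it cuts there is sequenced, so that occupied sites show as piles of fragments.

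The promoters of 8 newly listed genes are shown first, as examples of where the E-box lies relative to the start and the summit: 6 are high-ranked ones whose peak summit fell inside the promoter window and which hold a CACGTG there, and the last 2 are the highest-ranked ones with none. Having been picked for the motif, they do not show how often it occurs, which was in 11.4% of promoter windows near new peaks. Each is the RefSeq window of 300 bases, from 250 before to 50 after an annotated gene start in GRCh38.p14, which is the hg38 assembly of the peak lists. It is written 5′ to 3′ in the direction of the gene with CACGTG in capitals, and positions count from 0 at the start, negative upstream. Windows were matched by gene identifier and chromosome for 1600 of the 1916 genes.

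In EMC9, a subunit of the endoplasmic reticulum membrane protein complex, the window lies at chr14:24141542-24141841 on the minus strand, and the E-box begins at position −69.
EMC9: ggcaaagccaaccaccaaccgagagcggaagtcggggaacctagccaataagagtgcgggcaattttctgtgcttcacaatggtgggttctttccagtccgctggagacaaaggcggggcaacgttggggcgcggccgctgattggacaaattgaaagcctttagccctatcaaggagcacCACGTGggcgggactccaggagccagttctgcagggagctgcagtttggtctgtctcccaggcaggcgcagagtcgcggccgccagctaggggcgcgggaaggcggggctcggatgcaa
Its peak held 33 fragments over the summit, which lay at position −26.

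For CAPN10, a calpain protease, the window is chr2:240586484-240586783 on the plus strand, with the E-box at −52. FNIP1, a folliculin partner in nutrient signalling at the lysosome, has its window at chr5:131796968-131797267 on the minus strand and is the member of this group with 2 E-boxes, at −175 and −94. RCL1, a factor of small ribosomal subunit assembly, has its window at chr9:4792694-4792993 on the plus strand, and here the E-box lies downstream of the start, at position 4.
CAPN10: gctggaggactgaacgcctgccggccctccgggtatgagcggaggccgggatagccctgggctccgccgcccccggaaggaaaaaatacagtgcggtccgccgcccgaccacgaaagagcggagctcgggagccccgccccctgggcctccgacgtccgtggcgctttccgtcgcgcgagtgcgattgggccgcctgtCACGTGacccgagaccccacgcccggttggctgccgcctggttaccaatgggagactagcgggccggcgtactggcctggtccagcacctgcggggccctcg
FNIP1: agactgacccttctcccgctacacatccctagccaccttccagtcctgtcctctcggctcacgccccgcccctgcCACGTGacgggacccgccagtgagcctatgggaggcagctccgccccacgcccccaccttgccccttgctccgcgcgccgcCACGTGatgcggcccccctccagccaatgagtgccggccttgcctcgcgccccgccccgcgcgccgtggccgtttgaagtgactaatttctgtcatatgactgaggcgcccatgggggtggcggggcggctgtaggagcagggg
RCL1: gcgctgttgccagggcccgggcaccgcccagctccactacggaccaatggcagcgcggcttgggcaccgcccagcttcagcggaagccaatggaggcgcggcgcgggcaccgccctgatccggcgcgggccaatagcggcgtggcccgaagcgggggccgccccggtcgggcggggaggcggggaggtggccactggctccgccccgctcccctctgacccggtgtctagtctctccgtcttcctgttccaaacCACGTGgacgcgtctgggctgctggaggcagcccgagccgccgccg
The peaks held 19 fragments at CAPN10, 20 at FNIP1 and 19 at RCL1.

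DUSP2, a phosphatase that inactivates MAP kinases, has its window at chr2:96145391-96145690 on the minus strand, with the E-box at −113. CYP20A1, a cytochrome P450 family member, has its window at chr2:203239091-203239390 on the plus strand, with the E-box at −48.
DUSP2: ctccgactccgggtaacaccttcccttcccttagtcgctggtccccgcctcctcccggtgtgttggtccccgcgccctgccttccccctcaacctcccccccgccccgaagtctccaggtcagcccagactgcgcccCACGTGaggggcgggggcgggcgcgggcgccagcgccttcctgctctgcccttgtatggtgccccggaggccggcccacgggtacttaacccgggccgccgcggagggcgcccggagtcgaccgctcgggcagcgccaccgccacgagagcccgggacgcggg
CYP20A1: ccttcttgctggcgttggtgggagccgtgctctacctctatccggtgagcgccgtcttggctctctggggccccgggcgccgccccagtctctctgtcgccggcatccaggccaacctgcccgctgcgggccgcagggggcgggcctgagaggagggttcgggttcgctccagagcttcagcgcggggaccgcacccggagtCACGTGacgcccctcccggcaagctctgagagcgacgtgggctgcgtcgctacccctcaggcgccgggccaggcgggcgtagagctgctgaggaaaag
Fragments over the summit numbered 23 at DUSP2 and 16 at CYP20A1.

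FRAT2, an inhibitor of GSK3 in Wnt signalling, and CDC7, the kinase that fires replication origins, ranked above all 6 and hold no CACGTG in the windows chr10:97334680-97334979 on the minus strand and chr1:91500862-91501161 on the plus strand.
FRAT2: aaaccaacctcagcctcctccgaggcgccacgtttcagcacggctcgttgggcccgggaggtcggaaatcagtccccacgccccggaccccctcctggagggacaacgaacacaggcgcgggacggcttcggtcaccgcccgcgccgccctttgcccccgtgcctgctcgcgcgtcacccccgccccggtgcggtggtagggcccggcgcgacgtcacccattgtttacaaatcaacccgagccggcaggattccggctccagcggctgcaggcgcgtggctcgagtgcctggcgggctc
CDC7: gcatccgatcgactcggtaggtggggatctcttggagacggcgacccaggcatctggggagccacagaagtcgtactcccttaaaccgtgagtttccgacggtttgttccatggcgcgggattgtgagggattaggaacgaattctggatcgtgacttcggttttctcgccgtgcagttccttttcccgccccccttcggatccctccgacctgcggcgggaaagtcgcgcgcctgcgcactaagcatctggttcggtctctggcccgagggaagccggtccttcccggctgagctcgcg
The peaks of these genes held 33 and 29 fragments. A motif match is a description of the letters in a window, not of a bound site.

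Most of the newly listed peaks were small. The number of fragments over each summit was recovered from the fold and −log10 p deposited by the authors, and all such values of a peak are the authors' own call within that library. The median was 9 fragments, with quartiles of 7 and 13 and a range of 3 to 70. The 1443 peaks at a single gene end that were also listed without doxycycline had a median of 17 fragments in the doxycycline library, with quartiles of 12 and 24. Only 104 newly listed peaks, or 5.40% (exact 95% interval 4.43 to 6.51), reached 20 fragments, against 40.5% of the peaks in both lists, and 13 reached 30. Intervals here cover counting error only, since the lists show neither PCR duplicates nor total read numbers.

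**Figure D1:**
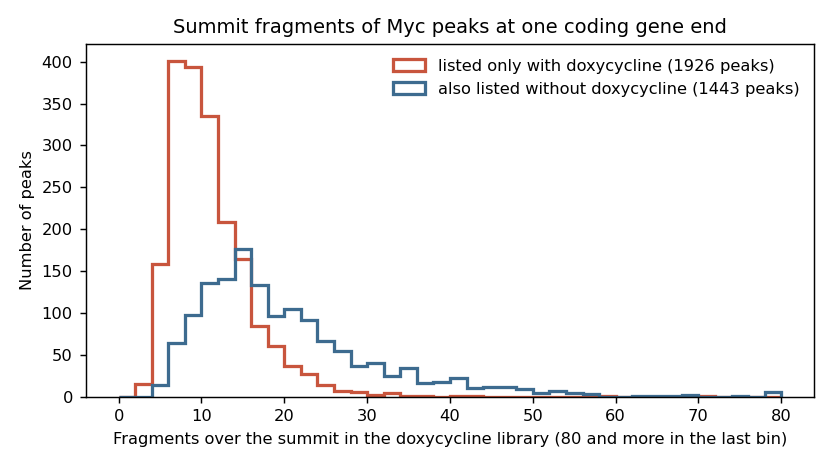
Number of peaks at 1 coding gene end (vertical axis) by fragments over the summit in the doxycycline library (horizontal axis), for the 1926 peaks listed only with doxycycline and the 1443 also listed without it. The first group piles up around its median of 9 fragments and the other around 17, with overlapping ranges.

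Other measures of size went the same way. Median width was 520 bp for newly listed peaks and 697 bp for peaks in both lists, the median deposited fold over local background was 5.64 against 7.28, and the median −log10 q was 4.89 against 9.58. The local background estimated by the caller at these summits was also lower, with a median of 0.788 against 1.44 fragments. A background taken from the same library would count fragments of the peak itself, so this is no separate measure of size. The widest newly listed peaks lay at APC2, an APC relative, with 2009 bp, KLHL21, an adaptor of a mitotic ubiquitin ligase, with 1762 bp, SH3PXD2B, a podosome adaptor, with 1547 bp, ZFP36L2, an mRNA decay factor, with 1546 bp, and TOB2, an antiproliferative deadenylation partner, with 1532 bp.

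The stronger a doxycycline peak was, the less often it was newly listed. Of the peaks with 3 to 5 fragments 92.5% were newly listed, of those with 10 to 14 fragments 63.4%, of those with 20 to 29 fragments 20.4%, and of the 99 with 40 or more only 4, or 4.04% (exact 95% interval 1.11 to 10.0). By rank of −log10 q in the doxycycline list, 1 newly listed peak fell among the first 100 of the 6718, 14 among the first 500 and 57 among the first 1000. Their median rank was 4150.

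**Figure D2:**
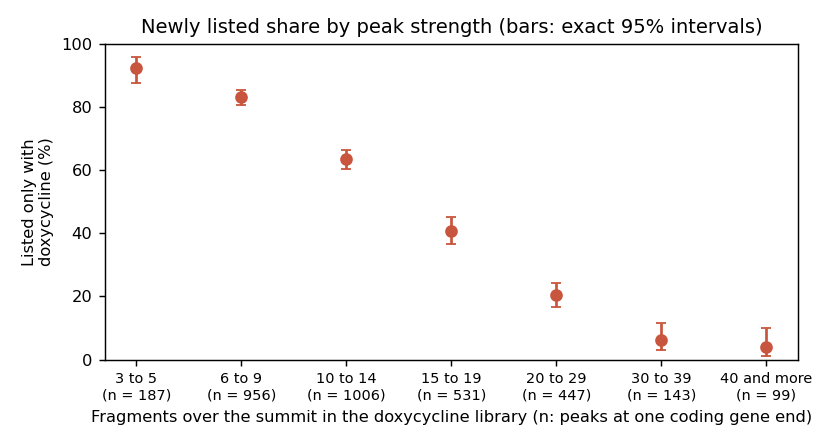
Percentage of doxycycline peaks at 1 coding gene end that were listed only with doxycycline (vertical axis), in classes of fragments over the summit (horizontal axis), with exact 95% intervals and the number of peaks under each class. The share falls from 92.5% in the lowest class to 4.04% in the highest.

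For peaks in both lists, the fragments in each library can be set side by side, but these peaks had to pass the caller without doxycycline too, so their values there are cut off below and give no yardstick for the new peaks. The 356 with 20 to 29 fragments with doxycycline had a median of 14 without it (quartiles 11 and 17.25, lowest 5), and the 682 with 10 to 19 had a median of 10. The 91 newly listed peaks of 20 to 29 fragments and the 855 of 10 to 19 had no listed peak at all without doxycycline. The smallest listed summits held 3 fragments in either library. A site under the threshold of the list without doxycycline has no value there, so whether it held no fragments or a few is not known from these lists. The part played by sequencing depth in the newly listed peaks was not tested. In the reverse direction, 242 of the 1689 peaks without doxycycline at a single gene end, or 14.3%, overlapped no doxycycline peak, with a median of 7 fragments and a median width of 428 bp.

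The sites lay at gene starts. Strand was known for the genes of 1607 newly listed peaks, and 97.4% of these (exact 95% interval 96.6 to 98.2) reached the start of the gene alone, 1.93% the far end alone and 0.622% both. Summits had a median position of −8 bp from the nearest annotated start, with quartiles of −235 and 182 bp, and 58.1% lay within 250 bp. Peaks in both lists reached the start in 97.8%, with a median of −54 bp and 59.8% within 250 bp. Summits upstream of the start were 51.8% (49.3 to 54.2) of the newly listed and 56.0% (53.2 to 58.8) of the others, so that these exact 95% intervals overlapped.

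**Figure D3:**
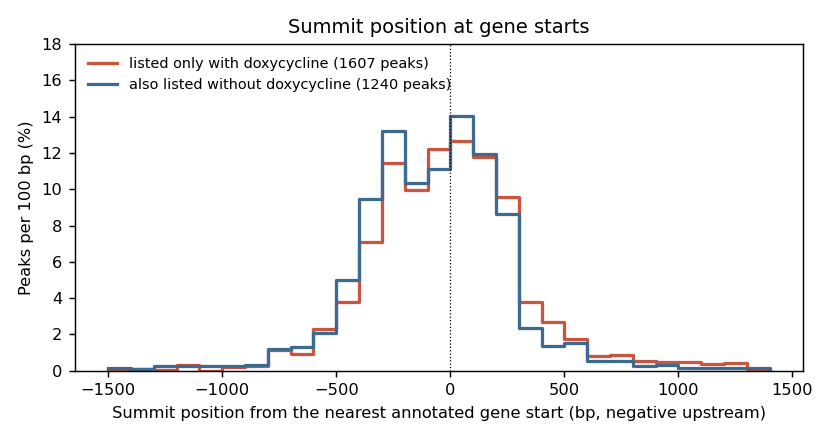
Share of peaks per 100 bp (vertical axis) by position of the summit from the nearest annotated start in bp (horizontal axis, negative upstream), for 1607 newly listed peaks and 1240 peaks in both lists; summits beyond 1500 bp are not drawn. Both distributions span the start, with medians of −8 and −54 bp.

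The 31 peaks at far ends included ZNF771, a zinc finger gene, with 23 fragments, BCAN, a brain proteoglycan, with 25, GON4L, a transcriptional cofactor, with 14, and SLC2A1, the glucose transporter GLUT1, with 15. SLC2A1 and ZNF771 also had a peak without doxycycline within 1 kb of an end, which for ZNF771 lay 10327 bp from the new peak and held 14 fragments. Among all 1916 genes, 56 had such a peak and 1860, which is 9.31% of coding genes, had none.

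Since the rule removed every peak that shared a base with one of the other list, distances to that list are a description only. The median distance to the nearest peak without doxycycline was 125 kb, and 23 peaks, or 1.19%, lay within 500 bp of one. At the edge of the rule, the smallest gaps were 4 bp at RBL2, a retinoblastoma family protein, 12 bp at HEXIM1, an inhibitor of the elongation kinase P-TEFb, and 30 bp at RPS3, a ribosomal protein. The smallest overlaps, which kept a peak out, were 9 bp at ZNF776, 14 bp at PPT1 and 16 bp at AIFM1. Farthest from a gene end inside the limit were LOC102724560 at 998 bp and SH2D6 and UNC5CL at 989 bp, and nearest beyond it were EP300 at 1004 bp, VMP1 at 1015 bp and ABT1 at 1031 bp. The lowest −log10 q was 1.34, with 4 fragments each, at RFXAP, EMC4 and PRC1.

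The highest-ranked new peak belonged to ZNFX1, an RNA helicase-like protein of antiviral defence, at chr20:49278069-49278656. It held 59 fragments (exact Poisson 95% interval 44.9 to 76.1), ranked 49 in the doxycycline list and lay 12 bp outside the gene span. The nearest peak without doxycycline was 58668 bp away. PPA1, the cytosolic pyrophosphatase, had 35 fragments (24.4 to 48.7) at chr10:70233407-70233900 and the highest fold of all newly listed peaks, 11.7, which CCDC61, a centrosomal protein, equalled to that precision with 32 fragments. SLC20A1, a phosphate transporter, had 42 fragments (30.3 to 56.8) at chr2:112645386-112645819, with the summit at −303 bp from its start. These peaks were picked for their rank or fold, so their height describes the choice.

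MNT, a Max partner that represses Myc targets, had the most fragments of all newly listed peaks, 70 (54.6 to 88.4), at chr17:2399638-2400210, and its summit lay 1238 bp inside the gene. MNT already had listed peaks without doxycycline. Its start carried peaks in both lists, with 29 fragments (19.4 to 41.6) without doxycycline and 44 (32.0 to 59.1) with it, the former 1037 bp from the new peak. A further pair of overlapping peaks within the gene held 15 and 33 fragments. The new MNT peak was an additional summit inside a gene that was in both lists. Of the other 26 genes in the list of Myc, Max and Mlx network genes, MLXIP, a glucose-sensing Mlx partner, had a new peak with 15 fragments and ZBTB17, the Myc partner MIZ-1, one with 8. New peaks were 3 of the 11 single-end peaks of this list, or 27.3% (6.02 to 61.0), an interval that contains the 57.2% of all genes. All 11 had a median of 27 fragments, and 8 of the 27 genes had a peak in both libraries.

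Cell cycle genes appear among the 25 highest-ranked. WEE1, the kinase that holds cells before mitosis, had 33 fragments (22.7 to 46.3) and CDC7 had 29 (19.4 to 41.6). REPIN1, a zinc finger protein tied to replication, had 41, JARID2, a Polycomb cofactor, 27, and STK35, a nuclear kinase, 26. Transporters were SLC17A9, which loads ATP into vesicles, with 29 fragments and SLC7A1, which imports cationic amino acids, with 25. PABPC1, the cytoplasmic poly(A)-binding protein, had 37, and SUCLG2, a subunit of succinyl-CoA synthetase, 24.

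Vesicle and membrane proteins among the 25 were EMC9, with 33 fragments, RABGEF1, a RAB5 activator, with 27, PACS2, a sorting protein, with 23, VPS37C, an ESCRT-I subunit, with 23, and CHMP3, an ESCRT-III subunit, with 22. METTL16, an RNA methyltransferase, had 21 fragments. The remaining ones were C2CD2 with 29, C20orf96 with 25, FAM168A with 22, ZNF333 with 19 and FRAT2 with 33. Of these 25 genes, MNT alone had a peak without doxycycline within 1 kb of an end.

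In 10 genes 2 newly listed peaks lay at the same gene. TEAD4, the DNA-binding partner of YAP, had 19 and 14 fragments, SMAD2, a transducer of TGF-β signals, 15 and 13, and DLX1, a homeobox factor, 18 and 10. STAG2, a cohesin subunit, had 10 and 11, SEC16A, an organiser of endoplasmic reticulum exit sites, 17 and 12, and ARPC1B, an Arp2/3 subunit, 12 and 14. The others were NUDT3 with 13 and 10, PDSS1 with 9 and 15, PRDX6 with 11 and 8, and EHD2 with 7 and 10, the EHD2 pair lying at opposite ends of the gene.

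Across the 56 gene lists, the newly listed share of a list's doxycycline peaks ran from 21.1% to 83.3% among lists with at least 10 peaks at a single gene end. The lists were written from general knowledge of gene families, and their counts are set beside 57.2% and a median of 12 fragments for all 3369 peaks. No list was tested, and since stronger peaks were less often new, the plot by gene list sets the median fragments of each list beside its share.

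**Figure D4:**
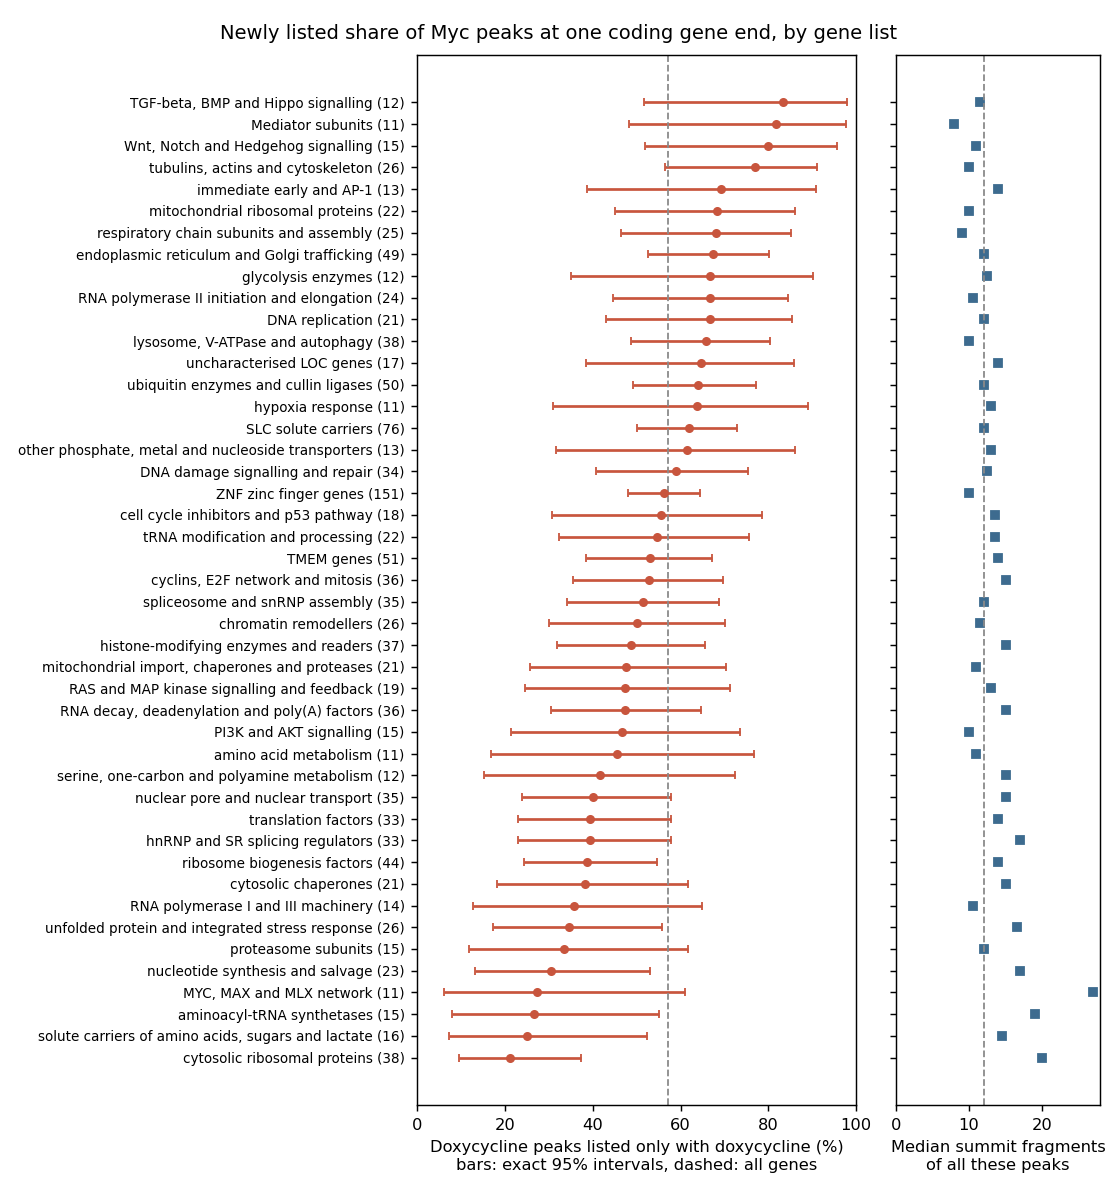
For each gene list with at least 10 doxycycline peaks at 1 coding gene end (number in brackets), the percentage listed only with doxycycline with its exact 95% interval (left) and the median fragments over the summit of all these peaks (right); dashed lines mark all genes, at 57.2% and 12. Cytosolic ribosomal proteins lie lowest, at 21.1%, and TGF-beta, BMP and Hippo signalling highest, at 83.3%.

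Cytosolic ribosomal protein genes, long known as Myc targets, mostly had their peaks in both lists. Of 78 cytosolic ribosomal protein genes, 41 had a peak in both libraries and 8 a newly listed one. Of the 38 single-end doxycycline peaks of this list 21.1% (exact 95% interval 9.55 to 37.3) were new, and all 38 had a median of 20 fragments. The new peaks held 10 to 31 fragments, and the highest is not named here. Among the new ones were RPL13 with 27 fragments, RPS15A with 19, RPLP0 with 15, RPL21 with 12, RPL30 with 11, and RPL29 and RPS3 with 10 each. Within 10 to 19 fragments, 6 of the 16 peaks of this list were new, or 37.5% (15.2 to 64.6), beside 55.6% of all 1537 such peaks.

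The other lists of the translation machinery spread from 26.7% to 68.2% new. Ribosome biogenesis factors had new peaks at 17 of 107 genes, among them SURF6, a nucleolar assembly factor, with 22 fragments, and GAR1, a box H/ACA snoRNP protein, BMS1, a nucleolar GTPase, and NOB1, the endonuclease that matures 18S rRNA, with 14 each. These were 38.6% of the single-end peaks of the list. Translation factors had 13 of 75, or 39.4% of peaks, with PDCD4, an inhibitor of eIF4A, at 16 fragments and the eIF3 subunits EIF3J at 15 and EIF3M at 12 after PABPC1. Aminoacyl-tRNA synthetases had 4 of 41, or 26.7% (7.79 to 55.1) of 15 peaks, led by NARS1 with 10 fragments and MARS2, the mitochondrial methionine enzyme, with 11. Mitochondrial ribosomal proteins differed from the cytosolic ones in count, with 15 of 78 genes and 68.2% (45.1 to 86.1) of 22 peaks new and a median of 10 fragments over all 22. The 95% intervals for all peaks of the cytosolic and the mitochondrial list do not overlap. Within 10 to 19 fragments they do, with 7 of 10 mitochondrial peaks new (34.8% to 93.3%) beside the 6 of 16 cytosolic ones (15.2% to 64.6%). MRPL58 had 18 fragments, MRPS33 16, MRPL11 15 and MRPL3 14.

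Mediator genes, to which MED30 belongs, had few strong peaks. Newly listed peaks lay at 9 of 33 genes and made up 9 of the 11 single-end peaks of the list, 81.8% (48.2 to 97.7). That interval contains the 57.2% of all genes. All 11 had a median of 8 fragments, and of all single-end peaks with 6 to 9 fragments 83.1% were new. MED20 and MED17, both of the head module, had 18 and 10 fragments, MED14, the scaffold, 8, MED25 8, MED1, the contact for nuclear receptors, 7, MED26 7, and MED7, MED15 and MED24 5 each. MED1 and MED24 also had a peak without doxycycline near an end. Of the list for RNA polymerase II initiation and elongation 16 of 91 genes had a newly listed peak. They were led by AFF4, a scaffold of the super elongation complex, with 18 fragments. CDK9 and CCNT2, the kinase and a cyclin of P-TEFb, had 14 each. New peaks made up 66.7% (44.7 to 84.4) of the 24 single-end peaks, an interval that contains the 57.2% of all genes. Within 10 to 19 fragments all 10 peaks of this list were new, or 100% (69.2 to 100), beside 55.6% of all such peaks. That interval does not contain 55.6%. The list is among 56, and this difference was not tested.

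In the signalling and immediate early lists the newly listed share ran from 46.7% to 83.3%. Each of their exact 95% intervals contained the 57.2% of all genes. In Wnt, Notch and Hedgehog signalling 12 of 83 genes had one, and these were 12 of the 15 single-end peaks of the list (exact 95% interval 51.9% to 95.7%). FRAT2 led with 33 fragments, followed by the Notch-responsive repressors HES4 with 27 and HES1 with 23, and by ZNRF3, a ligase that removes Wnt receptors, with 16. In TGF-β, BMP and Hippo signalling 8 of 56 genes had 10 new peaks among 12, or 83.3% (51.6 to 97.9). TEAD4 and SMAD2 each had 2 of these 10 peaks, counted singly in the interval. The others included AMOTL2, a YAP-binding scaffold, with 14 fragments, YAP1 with 10, and TGFB3, a ligand, with 9. Immediate early genes had 9 of 45, or 69.2% (38.6 to 90.9) of 13 peaks. FOSL2, an AP-1 subunit, had 30 fragments, EGR3 and KLF10 14, IER5 13 and FOS 11. RAS and MAP kinase signalling had 9 of 79 genes and 47.4% (24.4 to 71.1) of 19 peaks, led by DUSP2 with 23 fragments, and PI3K and AKT signalling had 7 of 47 and 46.7% (21.3 to 73.4) of 15 peaks, both below the 57.2% of all genes but with intervals that contain it.

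Lists of trafficking, degradation and cytoskeletal genes lay on both sides of the overall share. Endoplasmic reticulum and Golgi trafficking had 32 of 147 genes, or 67.3% (52.5 to 80.1) of peaks, with RAB11B, a recycling GTPase, at 19 fragments, VAMP4, a SNARE, at 16, and SSR3, a translocon subunit, and GORASP2, a Golgi stacking protein, at 15. Ubiquitin enzymes and cullin ligases also had 32, of 144, or 32 of 50 peaks (49.2% to 77.1%), with USP22, the SAGA deubiquitinase, at 23, UBE3C at 22, XIAP, an inhibitor of caspases, at 16, and FBXL20 at 14. Proteasome subunits had 5 of 45, or 33.3% (11.8 to 61.6) of 15 peaks, led by PSMD3 with 9. Lysosome and autophagy genes had 25 of 106, or 65.8% (48.6 to 80.4) of peaks, led by FNIP1 with 20, LAMTOR4, a Ragulator subunit, with 15, PSAP, the saposin precursor, with 13 and ATG4C, a protease of autophagy, with 12. Tubulins, actins and cytoskeleton had 19 of 95, or 76.9% (56.4 to 91.0) of peaks, with PFN2, a profilin, at 20 fragments, MYH10, a nonmuscle myosin, at 19, LMNB1, a lamin, at 16 and KIF3A, a kinesin, at 11. For trafficking and the cytoskeleton the share within 10 to 19 fragments was 71.9% (53.3 to 86.3) and 64.3% (35.1 to 87.2), beside 55.6% for all genes. Both intervals contain that value.

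In metabolism, 8 of 31 glycolysis genes had a new peak, or 66.7% (34.9 to 90.1) of the 12 single-end peaks of the list. That interval contains the 57.2% of all genes. ALDOA had 15 fragments, and this gene also had a peak without doxycycline near an end, TIGAR, a bisphosphatase that lowers glycolytic flux, 14, PDK1, which inhibits pyruvate dehydrogenase, 11, GPI and PKM 10, PGK1 8, PFKFB3 7 and BPGM 6. In polyamine and one-carbon metabolism 5 of 34 genes had a new peak, or 41.7% (15.2 to 72.3) of 12 peaks, again with 57.2% inside the interval. They were MAT2A, which makes S-adenosylmethionine, with 20 fragments, and ODC1, the first enzyme of polyamine synthesis and a classical Myc target, with 15. The others were AZIN1, which protects ODC1, and MTHFD1L with 14 each, and SRM, spermidine synthase, with 10. Respiratory chain genes had 17 of 101, or 68.0% of peaks, led by NDUFS7 of complex I with 15 and UQCRC2 of complex III with 14. Nucleotide synthesis had 7 of 49, 30.4% of peaks, led in rank by PRPS1, which makes the ribose donor, with 10 and UCK2, a uridine-cytidine kinase, with 17. CTH, a transsulfuration enzyme, had 20 fragments.

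Genes of chromatin, replication, mitosis and repair had shares from 48.6% to 66.7%, on either side of the 57.2% of all genes. Histone-modifying enzymes and readers had 18 of 104 genes, or 48.6% of peaks, with BRD2, a BET reader, at 25 fragments, EZH2 and EZH1, the Polycomb methyltransferases, at 23 and 22, and TRIM28, a corepressor of zinc finger proteins, at 21. DNA replication had 14 of 67, or 66.7% of peaks, with CLSPN, a checkpoint mediator, at 14 after CDC7, POLA2, a primase partner, at 13 and TOP2A at 12. Cyclins, E2F and mitosis had 18 of 101, or 52.8% (35.5 to 69.6) of peaks. STAG1 had 20 fragments, CCND1, cyclin D1, 18 and NCAPG2, of condensin II, 15 after WEE1. DNA repair had 20 of 96, or 58.8% (40.7 to 75.4) of peaks, led by REV1, a translesion polymerase, with 16 and XRCC2, a factor of homologous recombination, with 14. The intervals of both these lists contain 57.2%. Zinc finger genes whose symbol begins with ZNF had 85 of 518, or 56.3% of their 151 peaks, close to 57.2%.

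Genes of other cell types had almost no peak of any kind, in either library. Neither list had a peak at any of the acinar, endocrine and keratin genes, at 23 of the 25 leukocyte genes or at 23 of the 24 hepatocyte genes. No newly listed peak lay at any of 35 genes of pancreatic acinar and endocrine cells, 25 leukocyte genes, 24 hepatocyte genes or 23 keratin and skin barrier genes, and 1 lay at the 21 neuronal genes, SNAP25 with 7 fragments. The upper exact 95% limits on these shares of 0 run from 10.0% for the acinar and endocrine genes to 14.8% for the keratins, and all contain the 9.59% of all coding genes. Interferon and antigen presentation had 1 of 45, MX1, an antiviral GTPase, with 10 fragments.

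The canonical E-box was less frequent in promoter windows near new peaks than in those near peaks in both lists. CACGTG, which reads the same on both strands, was present in 11.4% (exact 95% interval 9.82 to 13.1) of the 1511 promoter windows whose start lay within 1 kb of a newly listed summit, and in 16.9% (14.8 to 19.2) of the 1188 at peaks in both lists. All 22132 coding promoter windows of this length gave 8.34%, and the 16574 with no peak in either list gave 6.56% (6.19 to 6.95). The share near new peaks lay between those for windows without a peak and for peaks in both lists, and none of these 3 intervals overlapped. The 177 windows at peaks listed only without doxycycline gave 12.4% (7.96 to 18.2), an interval that contains the share near new peaks. Windows are not replicates of a condition, so the intervals cover counting error over windows only.

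Among new peaks the share was lowest for the smallest summits. Where the summit fell inside the window, 14.2% (11.4 to 17.3) of 551 new windows and 20.8% (17.1 to 24.9) of 442 others held a CACGTG, so that here the intervals of both groups overlapped. Below 10 fragments the share among the new ones was 9.40% (6.17 to 13.6) and at 10 to 14 fragments 17.5% (12.3 to 23.6). At 15 to 19 fragments it was 21.9% (12.5 to 34.0) and at 20 or more 18.8% (7.21 to 36.4), so that the intervals of these classes overlapped. For peaks in both lists the same classes gave 15.4%, 11.6%, 26.0% and 25.3%, and in each class the exact 95% intervals of the 2 groups overlapped. Where an E-box was present, it lay a median of 60.5 bp from the summit of 78 new peaks and 62 bp from that of 92 others, and 71.8% and 72.8% lay within 100 bp.

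Base composition was similar in both groups of peaks. Median GC content was 67% in windows at new peaks, 65% at peaks in both lists and 62.3% over all windows, with 28, 27 and 21 CpG dinucleotides. The E-box share was then compared within classes of CpG number. In windows with 32 or more CpG, CACGTG occurred in 14.1% (11.4 to 17.2) at new peaks, 18.8% (14.8 to 23.2) at peaks in both lists and 8.30% (7.44 to 9.24) without a peak, and the intervals of both groups of peaks overlapped. With 22 to 31 CpG the same shares were 10.6% (8.20 to 13.4), 17.7% (14.5 to 21.2) and 8.38% (7.42 to 9.42), so that at this composition the intervals for new peaks and for windows without a peak overlapped. With 8 to 21 CpG the share at 333 new-peak windows was 8.11% (5.41 to 11.6), no higher than the 8.26% without a peak.

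Other promoter motifs were searched on both strands in the same windows. CACGCG, a variant E-box, was in 21.1% of windows at new peaks and 25.1% at peaks in both lists, with overlapping intervals, and in 14.2% of all windows. CATGTG, another variant, was in 4.70% (3.69 to 5.89), 6.99% and 8.93%, with overlapping intervals for both groups of peaks. Where the summit fell inside the window, CATGTG was in 4.17% (2.66 to 6.20) at new peaks and 9.28% (6.74 to 12.4) at peaks in both lists. These intervals did not overlap, so which E-box separates the groups depends on the windows taken. CAGCTG, an E-box read by other helix-loop-helix factors, was in 15.6% (13.8 to 17.5) at new peaks, with an interval that overlapped that of peaks in both lists (12.1 to 16.1). Different E-boxes never match the same 6 bases, but neighbouring matches can share bases, as can a GC box and a CACGCG.

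Motifs of general promoter factors were alike in both groups of peaks. GGGCGG, the GC box, was in 76.8% (74.6 to 78.9) at new peaks, with an overlapping interval at peaks in both lists (71.4 to 76.5), beside 56.3% of all windows. CCGGAAG, an ETS site, was in 20.9% at peaks in both lists (18.6 to 23.3) with an overlapping interval at new peaks (19.9 to 24.1), beside 12.8%. CCAAT was in 38.7% and 40.5%, beside 34.6%, and TGACGTCA, the cAMP response element, in 4.17% and 3.62%, beside 2.26%. TATAAA was in 4.43% and 4.88%, below the 9.46% of all windows, TGACTCA, an AP-1 site, in 2.45% and 1.94%, beside 4.01%, and the palindromic NRF1 site, in 2.58% and 3.28%, beside 1.51%. In each of these 7 motifs the 95% intervals of the groups of peaks overlapped.

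**Figure D5:**
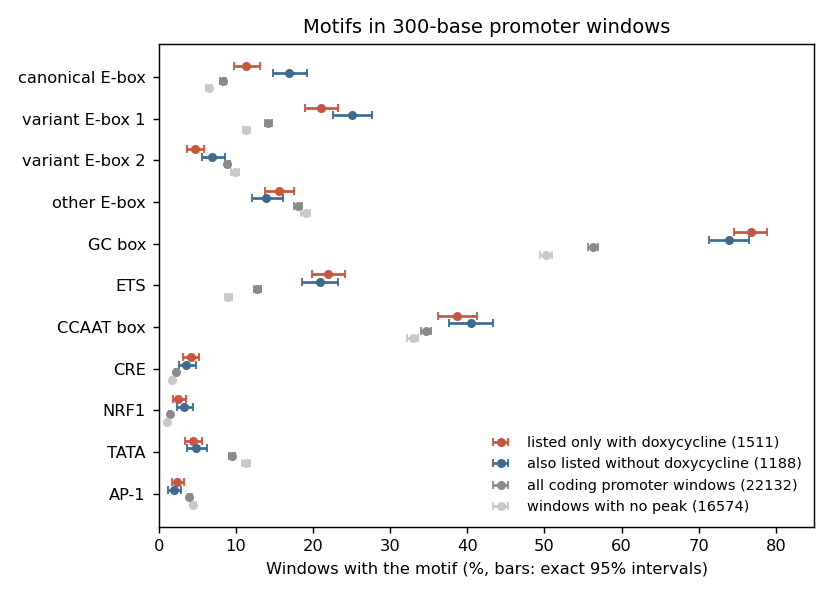
Percentage of 300-base promoter windows holding each motif (horizontal axis) with exact 95% intervals, for starts within 1 kb of a newly listed summit, starts within 1 kb of a summit in both lists, all coding windows and windows with no peak, with the number of windows in brackets; variant E-boxes 1 and 2 are CACGCG and CATGTG, and the other E-box is CAGCTG. In this set of windows the canonical E-box separates the groups of peaks, at 11.4% and 16.9%, while the intervals for the GC box overlap.

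The newly listed share ranged from 45.7% to 74.1% between chromosomes. It was highest on chromosome 4, with 60 of 81 peaks or 74.1% (63.1 to 83.2), and chromosome 15, with 59 of 82 or 72.0% (60.9 to 81.3), and lowest on chromosome 21, with 16 of 35 or 45.7% (28.8 to 63.4), chromosome 16, with 68 of 143 or 47.6% (39.1 to 56.1), and chromosome 19, with 134 of 273 or 49.1% (43.0 to 55.2). The intervals for chromosomes 4 and 15 do not overlap that for chromosome 19. These chromosomes were picked as extremes, peak strength was not compared between chromosomes, and the difference was not tested. The genes of newly listed peaks had a median span of 33.2 kb, against 27.4 kb for those of peaks in both lists and 24.2 kb for all coding genes, and 30.3% of the peaks also lay within 1 kb of the end of a non-coding gene, against 32.6%.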

How the data were processed

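Myc CUT&Tag peaks of 2 MIA PaCa-2 libraries were used, 1 per condition, grouped by their titles. The submitters' processing notes name MACS2, Bowtie2, Trim Galore and deepTools and the build hg38. Versions and parameters: not given in the sources used here. Peaks were called per library, with 3559 and 6953 deposited. In 10 columns the authors deposited a score, the fold over local background (a ratio) and, for the summit, −log10 of the p-value and of the q-value. Whether control libraries entered the calls is not given.

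Fragments over the summit were recovered where the fold is (fragments + 1)/(background + 1) and p a Poisson tail, within 0.001 in −log10 p, for 99.9% and 99.97% of peaks. This and the overlap steps were tested on simulated data, where 100% of fragment numbers and of 200 planted overlaps came back. The simulated fold and p were made with the same formula. That test therefore checks the inversion, not whether the deposited values follow the formula. Overlap meant 1 shared bp. Gene spans and promoter windows came from RefSeq for GRCh38.p14, and strand from the windows. Promoters were printed for the 6 highest-ranked peaks with both the summit and an E-box in the window, leaving out chromosome 8, and the 2 highest without. Of 3225 list symbols 4 had no match: TRMT12, NDUFA4, PRPF4B and PNLIPRP2.

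Shares have exact Clopper-Pearson and fragments exact Poisson 95% intervals, from Python 3.11.15 with scipy 1.17.1, pandas 2.3.3 and numpy 2.4.6. The peaks described, gene lists and naming rules were chosen with earlier results of these data known. Named were the 25 highest −log10 q, up to 4 per gene list, the 3 nearest each threshold, the 5 widest, the 5 of highest fold and genes with 2 peaks; further genes of short lists and far ends were chosen after their values were seen. Alternatives were other overlaps, gene-end windows, −log10 q thresholds, equal list lengths, merging and all contigs. Some items are not reported here.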

Additional observations from a re-analysis of the deposited data

Results flagged for a closer look

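Outside chromosomes 1 to 22, X, Y and M, the comparisons above used no peak, but the doxycycline list holds 223 peaks on other contigs of the assembly, of which 163 overlap no peak of the library without doxycycline. That library has 82 peaks on such contigs. The gene table gives no genes there, so none of these peaks could be placed at a gene end.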

How the results depend on the processing

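The 8 summary results were recomputed under 11 settings, and 60 of 81 values moved by less than their interval or by less than 1.5 times for a count. Reciprocal overlap of 50% raised the newly listed share to 64.7% and the median width to 541 bp. Gene-end windows of 500 and 2500 bp gave 98.3% and 94.3% at the start. A −log10 q of at least 3 gave a share of 52.7%, a median of 11 fragments and 539 bp, and one of at least 5 left 934 peaks at 933 genes, 43.2%, 13 fragments, 564 bp and 269 of the listed genes against 514. With as many highest-ranked doxycycline peaks as the other list holds, 720 peaks at 720 genes stayed, 38.5%, with 14 fragments, 574.5 bp, 13.5% with CACGTG and 207 listed genes. These settings keep fewer, stronger peaks by construction. Summits inside the promoter window, a choice made after seeing the data, gave 14.2% with CACGTG. No paired analysis was possible because each condition has 1 library, and none could be left out. Summits of few fragments limit all single-gene values.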
